A study of Mus musculus with 3 samples.

Results

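The 8 genes described here encode transcription factors of the nephric lineage: the paired box factors Pax2 and Pax8, the homeodomain factors Emx1, Emx2 and Lhx1, the basic helix-loop-helix PAS factor Sim1, and the zinc finger factors Gata3 and Sall1. They were taken by symbol from a list of nephric lineage and distal tubule factors that used no expression threshold but was drawn up with earlier results of these data known, and all 8 of them were found among the 55487 genes of the table. Expression was measured by RNA sequencing of total RNA, depleted of ribosomal RNA, in 3 libraries of unmodified mpkDCT4a cells, an immortalised mouse line derived from the distal convoluted tubule, the segment that reabsorbs sodium chloride downstream of the loop of Henle. All libraries came from cells kept at 37 °C with serum (2%), dexamethasone (50 nM), triiodothyronine (1 nM), epidermal growth factor (10 ng/ml), insulin (5 µg/ml) and glucose (20 mM). There was 1 group and no other cell type, so levels within this line, and the spread between its libraries, are what the design can show. Nothing in the labels ties the replicates to separate cultures, so every p-value speaks of the spread among these 3 libraries alone, and that spread may be technical.

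The nephric duct forms from intermediate mesoderm, where Pax2, Pax8 and Lhx1 set up the lineage and Gata3 acts downstream of the Pax factors in the growing duct. The duct sends out the ureteric bud, which needs Emx2, and the bud meets the metanephric mesenchyme, where Sall1 is required for kidney growth. The bud becomes the collecting duct, the mesenchyme gives rise to the nephron with its distal tubule, and some of these factors stay on in adult tubules. Sim1 is best known from the hypothalamus, and Emx1 from the cerebral cortex, but both have also been tied to distal nephron segments.

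The start regions of 3 of these genes are shown: those of Pax8, which had the highest mean TPM of the 8 factors, although not separable from Sall1, and those of the paralogs Emx2 and Emx1, of which the first was expressed and the second had no counts. Each sequence is the RefSeq window (GRCm38.p6) from 250 bases before to 50 bases after the annotated start, read 5′ to 3′ on the gene's strand. Capitals mark CG dinucleotides. The windows lie at chr2:24475550-24475849 on the minus strand (Pax8), chr19:59458440-59458739 on the plus strand (Emx2) and chr6:85187681-85187980 on the plus strand (Emx1).
Pax8: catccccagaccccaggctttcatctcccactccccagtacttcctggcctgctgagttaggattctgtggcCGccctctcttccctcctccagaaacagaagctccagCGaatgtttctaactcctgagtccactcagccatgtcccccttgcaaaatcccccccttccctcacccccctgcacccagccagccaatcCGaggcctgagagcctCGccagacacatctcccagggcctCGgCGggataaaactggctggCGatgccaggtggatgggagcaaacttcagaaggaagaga
Emx2: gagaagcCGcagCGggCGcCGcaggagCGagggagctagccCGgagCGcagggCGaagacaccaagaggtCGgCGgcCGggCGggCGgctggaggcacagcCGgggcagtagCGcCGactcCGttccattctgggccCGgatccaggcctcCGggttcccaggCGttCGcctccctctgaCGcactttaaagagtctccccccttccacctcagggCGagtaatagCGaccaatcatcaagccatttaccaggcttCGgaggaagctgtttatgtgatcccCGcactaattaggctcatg
Emx1: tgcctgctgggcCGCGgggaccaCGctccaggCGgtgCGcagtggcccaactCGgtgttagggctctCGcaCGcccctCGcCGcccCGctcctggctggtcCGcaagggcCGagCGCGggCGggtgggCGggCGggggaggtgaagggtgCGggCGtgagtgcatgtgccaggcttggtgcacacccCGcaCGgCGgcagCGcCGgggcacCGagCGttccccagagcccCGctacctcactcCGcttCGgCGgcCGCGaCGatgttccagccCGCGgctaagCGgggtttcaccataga
The Pax8 window held 7 CG dinucleotides, the median of the 32851 RefSeq windows of this length, whereas the Emx2 window held 26 and the Emx1 window 37, more than 94.4% of windows. Of the 3 windows of Sall1, which was well expressed, 1 held 39, more than either EMX gene, and the others held 27 and 18.

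Of the 8 factors 7 had counts in every library, as did 46.6% of protein-coding genes, and Emx1 was not seen in any. At this depth 1 count was worth 2.07 to 2.31 CPM (counts scaled to a common library size), and a mean of 1 CPM or more was taken as detection. A gene with 2 counts in all, such as Lhx2 (1.38 CPM), meets it. That level lies below the 2.20 CPM that 0 counts in all libraries still allow. By that rule 7 of the 8 factors were detected, against 50.6% of 21974 protein-coding genes and 22.5% of all genes, and 6 reached 10 CPM, against 40.8% of protein-coding and 16.4% of all genes. Since the factors were chosen with earlier results known, these shares are a description. The median of the 8 factors was 51.4 ± 9.84 TPM (counts per exon length, scaled to the same total in each library; SD of the medians of the 3 libraries), while the median was 1.51 TPM over all protein-coding genes and 31.4 TPM over the detected ones. In bulk RNA fewer expressing cells and less RNA per cell cannot be told apart. Levels below are mean ± SD (n = 3), CPM describe 1 gene across libraries, TPM compare genes, and counts of a gene are given for replicates 1, 2 and 3 in turn.

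**Figure D1:**
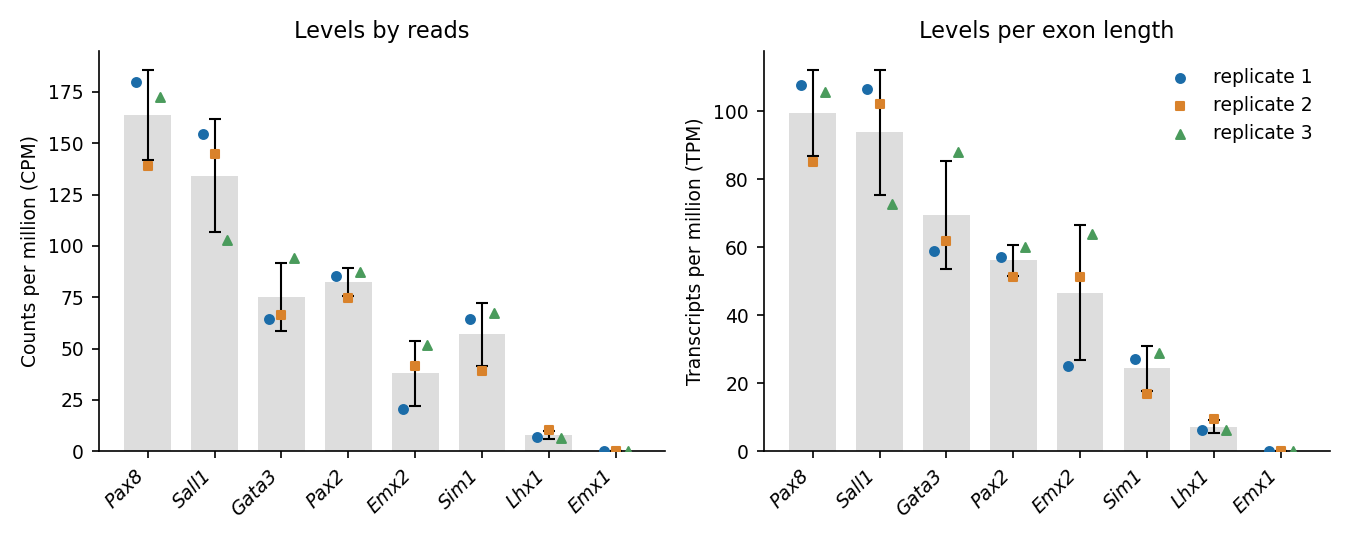
Levels of the 8 factors in 3 libraries, in CPM (left) and in TPM (right); bars are means, error bars SD, and points single libraries. In both panels Pax8 and Sall1 have the highest means, Lhx1 lies below 11 CPM in every library and Emx1 is at 0.

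Pax8 (ENSMUSG00000026976) lies on the minus strand of chromosome 2 in GRCm38, from 24420560 to 24475599. Its libraries held 78, 67 and 77 counts, which is 164 ± 22.0 CPM and 99.4 ± 12.6 TPM. It ranked above 91.3% of protein-coding genes by TPM and above 82.8% of the detected ones. Pax2 (ENSMUSG00000004231, chromosome 19, 44756045 to 44837871, plus strand) had 37, 36 and 39 counts, or 82.4 ± 6.89 CPM and 56.1 ± 4.54 TPM. Its 3 libraries lay closest together among the factors above 10 CPM, and every library of Pax2 was below every library of Pax8. Per exon length Pax2 had 0.565 times the counts of Pax8, with a 95% exact binomial counting interval of 0.446 to 0.713. The log2 ratio of TPM was -0.91, -0.73 and -0.81 in the 3 libraries, so the direction was the same in each, with an exact two-sided sign-flip permutation p of 0.25, the smallest that 3 libraries allow, and 0.393 after Benjamini-Hochberg adjustment over 11 pairs. The pair is the part of the PAX family known for overlapping roles in the early kidney, where either factor can partly stand in for the other.

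Sall1, a zinc finger factor that recruits the NuRD corepressor complex, had 67, 70 and 46 counts (ENSMUSG00000031665, chromosome 8, 89027235 to 89044162, minus strand). Its level was 134 ± 27.4 CPM and 93.7 ± 18.4 TPM, and replicate 3 was lower than both others. Gata3 (ENSMUSG00000015619, chromosome 2, 9857078 to 9890034, minus strand) had 28, 32 and 42 counts, which is 75 ± 16.6 CPM and 69.5 ± 15.9 TPM, with replicate 3 the highest. Sall1 ranked above 90.7% and Gata3 above 86.8% of protein-coding genes by TPM. Replicate 3 was thus the low library for one zinc finger factor and the high library for the other.

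Emx2 (ENSMUSG00000043969, chromosome 19, 59458372 to 59465357, plus strand) had 9, 20 and 23 counts, which is 37.9 ± 15.7 CPM and 46.7 ± 19.7 TPM. Replicate 1, at 20.8 CPM, was the lowest library, against 41.4 and 51.5 CPM in the others. Sim1 (ENSMUSG00000019913, chromosome 10, 50894754 to 50989152, plus strand) had 28, 19 and 30 counts, or 57.1 ± 15.4 CPM and 24.3 ± 6.49 TPM, with replicate 2 the lowest. Sim1 had more counts than Emx2 in all but replicate 2 and yet a lower mean TPM, because its exons span 8621 bases against 3002 for Emx2.

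Lhx1 (ENSMUSG00000018698, chromosome 11, 84518284 to 84525535, minus strand) had 3, 5 and 3 counts, or 8.0 ± 2.04 CPM and 7.24 ± 1.90 TPM. Its 11 counts carry a 95% exact Poisson interval of 4.03 to 14.4 CPM, which covers counting error only, as do all intervals and limits given here. Among detected protein-coding genes only 16.1% had a lower TPM than Lhx1. Emx1 (ENSMUSG00000033726, chromosome 6, 85187438 to 85204462, plus strand) had 0, 0 and 0 counts. A count of 0 in all libraries allows a level of up to 2.20 CPM (3 counts of the summed library sizes), so expression of Emx1 was not detectable at this depth.

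The order by TPM was Pax8, Sall1, Gata3, Pax2, Emx2, Sim1 and Lhx1, but several neighbours in it could not be separated. These neighbouring pairs were set by the observed order, so their ratios are a description and not a test of it. The ratio per exon length of Pax8 to Sall1 was 1.05 (0.863 to 1.29), of Gata3 to Pax2 1.24 (0.938 to 1.63) and of Pax2 to Emx2 1.20 (0.853 to 1.69), all with 95% exact binomial intervals that include 1. Sall1 to Gata3 (1.36, 1.06 to 1.74) and Emx2 to Sim1 (1.94, 1.34 to 2.79) had intervals above 1, yet 1 library went the other way in each, replicate 3 for the first pair and replicate 1 for the second. Sim1 to Lhx1 (3.31, 1.75 to 6.90) had the same direction in all 3 libraries. The length used mattered: with the longest transcript in place of the union of exons, the ratio of Pax8 to Sall1 was 1.89 and that of Pax2 to Emx2 1.44, each with the same direction in all 3 libraries. By that length the ratio of Sall1 to Gata3 fell from 1.36 to 1.10 and that of Emx2 to Sim1 from 1.94 to 1.70. Their intervals were not recomputed, so the separation of Sall1 from Gata3 rests on the length chosen. Without replicate 3 Sall1 stood above Pax8 (0.919 times for Pax8 to Sall1), and without replicate 1 Emx2 stood above Pax2 (0.968 times for Pax2 to Emx2). Of the 11 pairs compared, neighbours and paralogs together, 3 had a second gene without counts, which fixes their direction, and 4 of the other 8 had the same direction in every library.

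**Figure D2:**
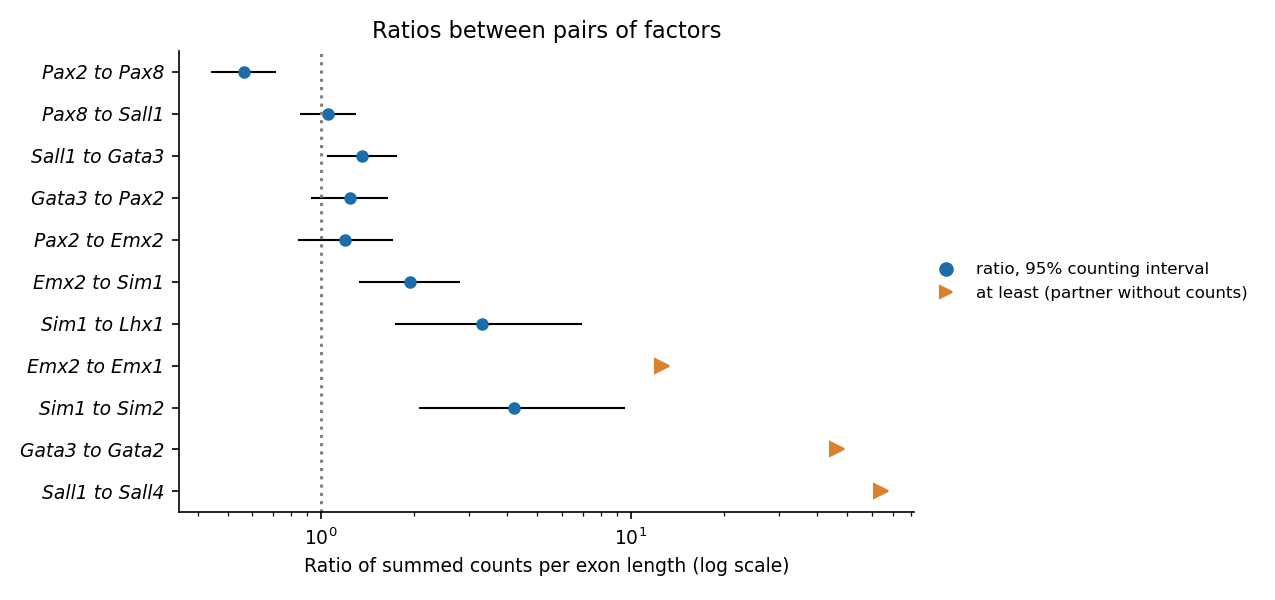
Ratios of summed counts per exon length for 11 pairs of genes on a log axis; circles with lines are ratios with 95% exact binomial intervals, and triangles are lower bounds where the second gene had no counts. The pairs Pax8 to Sall1, Gata3 to Pax2 and Pax2 to Emx2 have intervals that cross 1.

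None of the 7 detected factors passed a test for differences between the libraries after adjustment, and Emx1 could not be tested. Counts of each gene were tested against library size by an exact multinomial test (chi-square above 500 counts) with Benjamini-Hochberg adjustment over 12473 genes, and 5 genes (0.0401%) passed at 0.05, none of them among the 7 factors. At an unadjusted p under 0.05 the test called 621 genes (4.98%) and 0 of the 7 factors. The lowest values among the factors belonged to Emx2 (exact multinomial p = 0.0508, adjusted 0.956) and Sall1 (exact multinomial p = 0.0760, adjusted 0.956). With replicate 2 left out, Emx2 (exact p = 0.0205) and Sall1 (exact p = 0.0381) were under 0.05 before adjustment, and none passed after it. The number of genes that passed, 5 with all libraries, was 1 without replicate 1, 3 without replicate 2 and 3 without replicate 3. The chi-square statistic per degree of freedom had a median of 1.64 over the 7 detected factors and 0.726 over all genes tested, and 5.71% of genes had a larger value than Emx2.

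Within their families the 8 factors carried most of the expression, and most relatives had no counts. The 6 families to which they belong hold 39 genes, and of the 31 genes other than the 8 factors 25 had 0 counts and 5 were detected, or 16.1% against 50.6% of protein-coding genes. In every family and every library one of the 8 factors had the highest TPM. For the EMX family this was fixed beforehand, since both of its genes are among the 8 factors. The factors were chosen with earlier results known, so their place within the families is a description. The 5 detected relatives were Sall2, Sim2, Lmx1b, Gata6 and Lhx2, and Pax9 had 1 count.

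**Figure D3:**
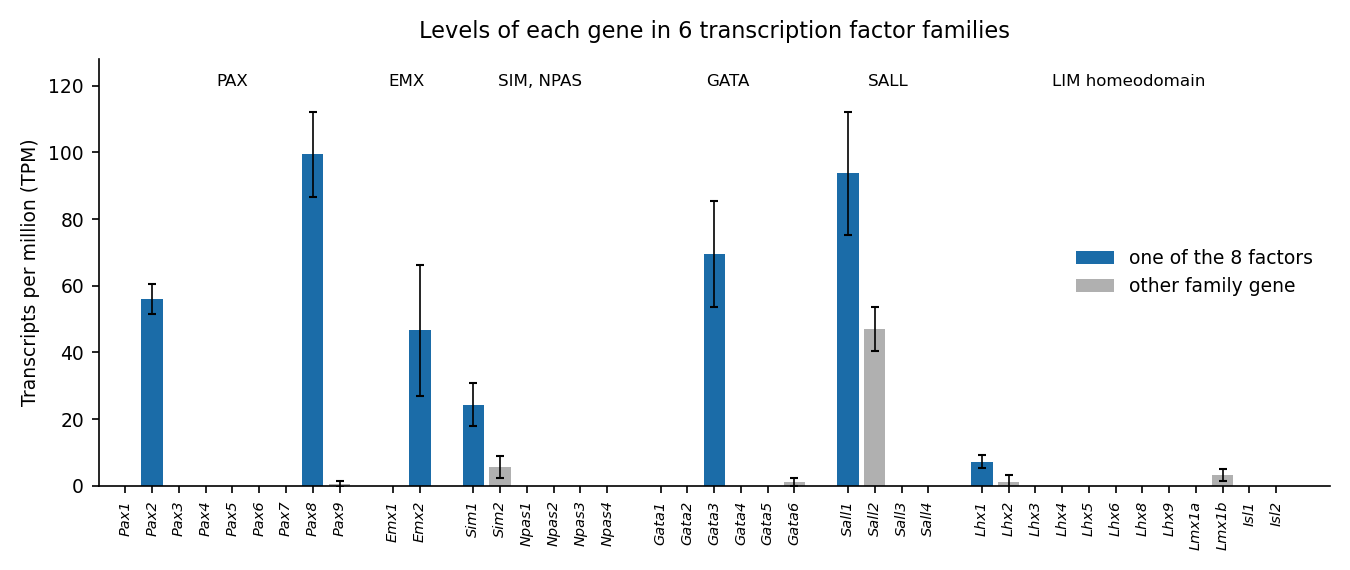
Mean TPM of all genes of the 6 families, with SD over 3 libraries for genes with counts; the 8 factors are blue and other family genes grey. Sall2 at 47.0 TPM is the highest grey bar, and 25 grey genes are at 0.

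In the PAX family, which spans regulators of vertebra, muscle, eye, pancreas and B cell development, Pax2 and Pax8 gave 334 of 335 counts (99.7%, exact binomial interval 98.3 to 99.99%). Pax1, Pax3, Pax4, Pax5, Pax6 and Pax7 had 0 counts. Among GATA factors, whose other members act in blood, heart and endoderm, Gata3 gave 102 of 105 counts, Gata6 had 1, 2 and 0 counts, and Gata1, Gata2, Gata4 and Gata5 had none. Gata3 was at least 46.1-fold higher than Gata2 per exon length, a bound set against 3 counts over the group, which was 27.1-fold without replicate 3. In the pair of EMX genes all 52 counts were from Emx2, which was at least 12.6-fold higher than Emx1 on the same basis. That bound was 7.76-fold without replicate 2 and 7.03-fold without replicate 3.

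The SALL family was the exception in that a second member was well expressed. Sall2 had 32, 28 and 34 counts, or 47.0 ± 6.55 TPM, and Sall3 and Sall4, the latter a factor of pluripotent and germ cells, had 0 counts. Per exon length Sall1 had 2.01 times the counts of Sall2 (1.56 to 2.60), with the same direction in all libraries, a pair chosen after its values were seen. Sall1 was at least 64.1-fold higher than Sall4, a bound that was 40.7-fold without replicate 1 and 39.6-fold without replicate 2. Sim1 had 4.19 times the counts of its paralog Sim2 per exon length (2.10 to 9.51), Sim2 having 4, 4 and 1 counts, and Npas1, Npas2, Npas3 and Npas4 had none. Of the 12 LIM homeodomain genes Lhx1 was the highest at 7.24 TPM, followed by Lmx1b (2, 1 and 3 counts, 3.37 ± 1.77 TPM) and Lhx2 (0, 2 and 0 counts). The family had 19 counts in all, so Lhx1's share of 57.9% has a wide exact binomial interval of 33.5 to 79.7%.

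Protein partners of the PAX and SALL factors were nearly all detected, where 50.6% of protein-coding genes were. PAX2 recruits histone H3 lysine methyltransferase complexes through the adaptor PTIP, encoded by Paxip1, and can recruit Groucho corepressors of the TLE group. Of 12 PAX cofactors, with a median of 24.0 ± 3.67 TPM against 31.4 TPM over the detected protein-coding genes, 11 were detected. They included Wwtr1, which encodes the PAX8 coactivator TAZ, at 161 ± 12.4 TPM, the demethylase gene Kdm6a at 72.9 ± 1.28 TPM, Ncoa6 at 62.7 ± 2.65 TPM and the methyltransferase gene Kmt2d at 52.8 ± 7.66 TPM. Paxip1 was lower, at 27.3 ± 8.46 TPM, and the TLE genes ran from 2.17 TPM (Tle2) to 16.5 TPM (Tle3). Pagr1a had 0 counts, but 90.3% of its 50-base stretches also occur in another annotated gene, so its value is uncertain. All 13 subunit genes of NuRD were detected, with a median of 172 ± 11.3 TPM. The remodeller Chd4 stood at 413 ± 2.20 TPM, Rbbp7 at 516 ± 40.6 TPM, Rbbp4 at 137 ± 12.6 TPM and Gatad2b at 122 ± 17.2 TPM. Rbbp4 and Rbbp7 share 17.2% and 11.2% of their 50-base stretches with other genes.

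SIM1 binds DNA as a dimer with ARNT or ARNT2. Arnt had 40, 51 and 35 counts (42.4 ± 6.29 TPM) and Arnt2 4, 6 and 3 (4.53 ± 1.38 TPM). Arnt was 9.31 times higher per exon length (5.25 to 18), again a pair chosen after its values were seen. The GATA cofactors of the FOG group were both detected, Zfpm1 at 21.7 ± 4.38 TPM and Zfpm2 at 10.1 ± 6.34 TPM (13, 4 and 18 counts). Of 10 LIM homeodomain cofactors 6 were detected, a share close to the 50.6% of protein-coding genes. The adaptor Ldb1 was at 65.2 ± 9.90 TPM, its stabilising partner Ssbp3 at 34.1 ± 3.71 TPM, the ubiquitin ligase Rlim, which acts on LDB proteins, at 262 ± 9.19 TPM and Lmo4, a competitor for LDB1, at 38.9 ± 9.09 TPM. Ldb2, Lmo2 and Lmo3 had 0 counts.

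**Figure D4:**
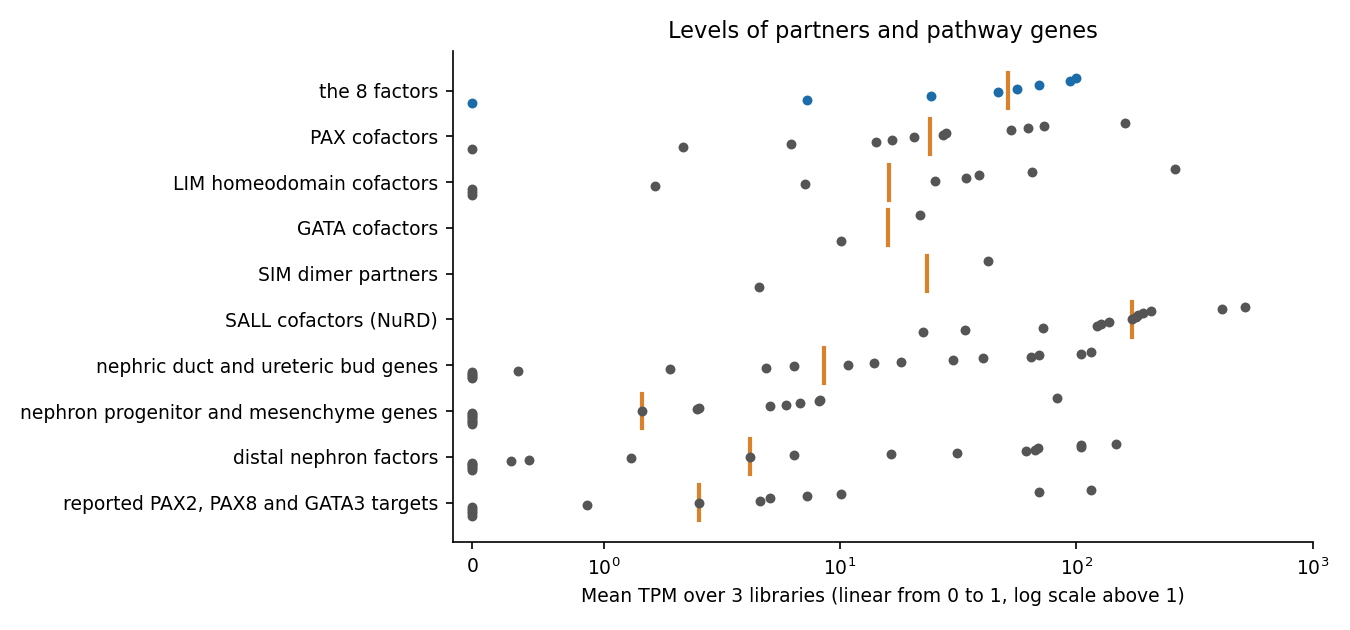
Mean TPM of each gene (points) by list, with the list's median as a vertical bar, on an axis that is linear from 0 to 1 TPM and logarithmic above. All NuRD genes lie above 20 TPM, while the duct, mesenchyme, distal and target lists run from 0 to over 80 TPM.

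Genes of the nephric duct and ureteric bud were expressed in part. Of 18 such genes 12 were detected (66.7%, against 50.6% of protein-coding genes), with a median of 8.60 ± 1.34 TPM. Among the highest were Cdh16, the kidney-specific cadherin gene, at 115 ± 14.5 TPM, Spry1, an inhibitor of receptor tyrosine kinase signalling, at 69.8 ± 20.2 TPM, and Sox9, a bud tip factor, at 64.1 ± 20.6 TPM. Of the 50-base stretches of Spry1 21.8% occur in another gene. The receptor tyrosine kinase gene Ret, through which the bud reads GDNF, had 0 counts, as did Wnt11, Wnt9b and Sox8. The coreceptor gene Gfra1 had 1, 3 and 0 counts.

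Among 17 genes of nephron progenitors and metanephric mesenchyme 8 were detected (47.1%, against 50.6% of protein-coding genes). Their median of 1.46 TPM is the value of a gene with 0, 1 and 0 counts, so it lies at the floor. The SD of the library medians was 0, and the median of all protein-coding genes was 1.51 TPM. Foxc1, a forkhead factor, stood apart at 82.9 ± 4.70 TPM, while Six4 (8.14 ± 2.62 TPM) and Eya1 (5.94 ± 2.35 TPM), which encode partner proteins of early kidney mesenchyme, were under 10 TPM. The progenitor gene Six2, the podocyte and mesenchyme factor Wt1, Meox1 and Foxc2 had 0 counts. Of 19 distal nephron factors 11 were detected (57.9%, close to the 50.6% of protein-coding genes), with a median of 4.16 ± 1.93 TPM. Tfcp2l1 was at 148 ± 5.59 TPM, Tfap2a at 105 ± 10.1 TPM, Esrrb at 68.7 ± 6.80 TPM and Mecom at 31.3 ± 3.18 TPM, and Irx3, Pou3f3, Sall3 and Elf5 had 0 counts. Pax8 at 99.4 TPM and Sall1 at 93.7 TPM were within the range of the higher factors of that list.

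Genes reported elsewhere as targets of PAX2, PAX8 or GATA3 were split. Of 13 such genes, a list that includes Gata3 and Lhx1 themselves, 7 were detected (53.8%), with a median of 2.54 ± 2.00 TPM. Cdh16 (49, 52 and 60 counts) was the highest, and Bcl2, which encodes an inhibitor of cell death, was at 10.1 ± 1.47 TPM (12, 10 and 12 counts). Tg, which encodes thyroglobulin, had 3, 4 and 8 counts (4.59 ± 2.53 TPM). Ret, Wt1 and Wnt9b had 0 counts. The share of this list that was detected lies close to that of all protein-coding genes.

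The factors are also expressed in other cell types, so markers of those types were counted. Of 7 T cell markers, relevant to Gata3, Lck was detected (1, 3 and 1 counts) and the 6 others, Cd3e and Ptprc among them, were at 0, with a summed level of 2.24 to 6.21 CPM per library. Of 6 thyroid markers, relevant to Pax8, Tg was detected and Tshr, Nkx2-1 and Foxe1 were at 0 (summed level 6.92 to 17.9 CPM). Of 11 markers of the distal convoluted tubule, the labelled cell type, 5 were detected (45.5%, against 50.6% of protein-coding genes). These were Wnk4, Cnnm2, Trpm6, Kcnj10 and Egf, of which only Wnk4 and Cnnm2 reached 10 CPM. The 6 others had 0 counts, the segment's defining genes Slc12a3 and Pvalb among them, and the summed level of the list was 66.3 to 94.1 CPM. For proximal tubule 3 of 8 were detected (Lrp2, Aqp1 and Cubn), with a higher summed level of 254 to 311 CPM and with Slc34a1 and Hnf4a at 0. Lrp2, whose exons span 16701 bases, gave most of that sum, and summed CPM are not adjusted for length. By TPM Aqp1 (84.6 ± 25.5) and Lrp2 (47.3 ± 3.70) were the highest of the list. For podocyte 2 of 5 were detected (Podxl and Synpo), with a summed level of 124 to 166 CPM and with Nphs1 at 0. Detected markers numbered 1 of 9 for connecting tubule and collecting duct (2.07 to 11.5 CPM in sum), 0 of 5 for thick ascending limb, 2 of 6 for fibroblast (6.72 to 16.6 CPM) and 1 of 5 for endothelium (9.23 to 11.2 CPM). The part of other cell types in the levels of the factors was not tested.

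Several of the loci carry further transcripts on the other strand, and no label or header used here states whether the counting respected strand. Of the 8 factors Pax2, Pax8, Emx2 and Gata3 overlap an annotated gene on the opposite strand, as do 36.0% of protein-coding genes. Emx2os, an antisense RNA that overlaps Emx2, had 4, 3 and 1 counts (5.89 ± 3.51 CPM), while Emx2 had 9, 20 and 23. The library with the fewest Emx2 counts had the most Emx2os counts, although the numbers for Emx2os are too small to rank libraries. Exons of Emx2os cover 8.79% of the exon bases of Emx2 and 196 of the 300 bases of the Emx2 window printed above. Of the RefSeq windows of the other factors, that of Gata3 lies wholly in an exon of Gm13256 (1, 0 and 2 counts), and that of Lhx1 holds 89 exon bases of Lhx1os (1, 0 and 1 counts). Overlapping exons took up 6.06% of Pax8 and 5.83% of Gata3, and none of Pax2, Sim1, Sall1, Lhx1 or Emx1. For Gata3 this includes 1.94% of its exon bases that overlap 9230102O04Rik, a gene on the same strand. Of the 50-base stretches of their exons, 7.18% in Emx2, 4.43% in Pax8 and 2.22% in Gata3 also occur in another annotated gene. For these overlaps reads cannot be assigned with certainty, and without strand those from opposite strands cannot be told apart.

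Most start regions were rich in CG. RefSeq gives 12 windows for the 8 factors, with 3 each for Pax2 and Sall1, and they held 7 to 39 CG dinucleotides, against a median of 7 (quartiles 3 and 20) over all 32851 windows. Of the 12 windows 10 lay above that median and 8 above the upper quartile, and the 2 at the median were the Pax8 window and the most upstream Pax2 window. The letters TAATTA, a core bound by many homeodomain proteins and the same on both strands, occurred in 1 of the 12 windows, that of Emx2, and in 5.29% of all windows. AGATAA, 1 form of the core bound by GATA factors and searched on both strands, occurred in 0 of the 12 and in 11.2% of all windows. Other forms of that core were not searched, so this does not show that GATA cores are absent. TATAAA, also on both strands, occurred in 1 of the 12, that of Sim1, and in 13.6% of all windows. The Sim1 window held 2 matches, both on the strand opposite to the gene, and 1 of them lay after the start.

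All but Pax2 had fewer protein-coding neighbours than the median gene. Within 500 kb on either side, overlapping genes included, Sim1 had 3 protein-coding neighbours, Sall1 4, Gata3 and Emx2 8 each, Emx1 11, Lhx1 14, Pax8 15 and Pax2 18, where the median over 21884 protein-coding genes was 17. Neither Sall1 nor Pax8 had a neighbour in that window with a higher TPM. The genes beside Pax8 were Psd4 (0.670 ± 0.652 TPM), 5605 bases away, and Cacna1b (1.33 ± 1.20 TPM), 128287 bases away, both far below its 99.4 TPM. Lhx1 was the reverse, since 12 of its 14 neighbours were detected and 12 had a higher TPM, among them Aatf (82.3 ± 21.8 TPM), 4761 bases away. Emx1, without counts, lay 8586 bases from Sfxn5 (3.39 ± 0.965 TPM) and 49671 bases from Spr (30.4 ± 3.71 TPM), and 8 of its 11 neighbours were detected.

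**Figure D5:**
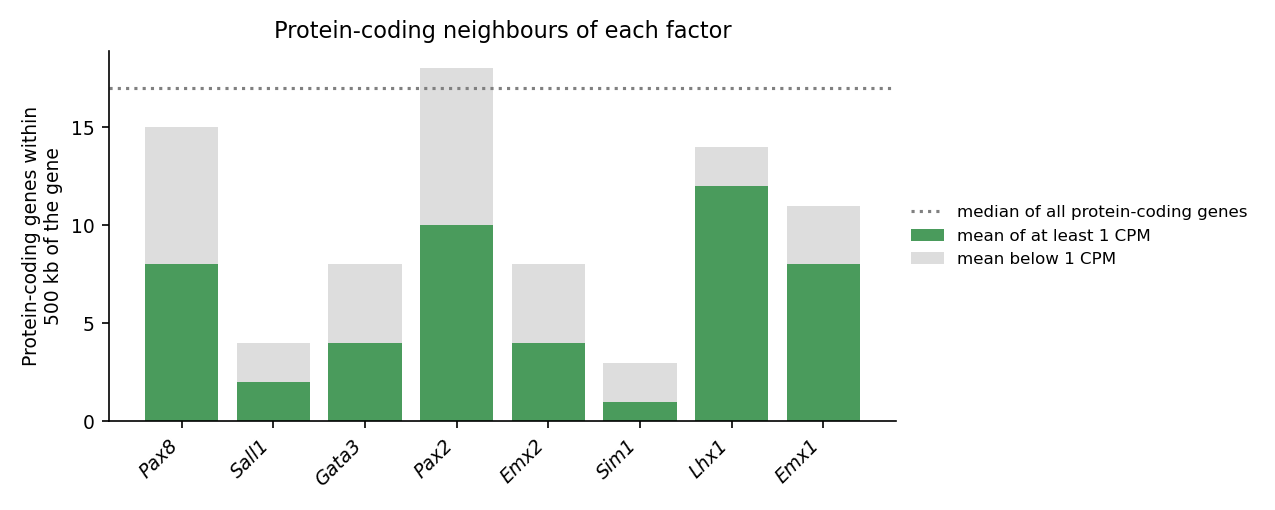
Number of protein-coding genes within 500 kb of each factor, split by whether their mean reached 1 CPM (green) or not (grey); the dotted line is the median of 17 over all protein-coding genes. Only Pax2 lies above the line, and Sim1 and Sall1 have the fewest neighbours.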

How the data were processed

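Counts were deposited by the authors as whole numbers of reads per Ensembl gene for 3 libraries (436983, 482418 and 443192 counts), not normalised. Per the labels' protocols, library construction started from 500 ng of RNA with fragments of some 300 bp. Per the submitters' processing notes, STAR and HTSeq were used with mm10. Not given in the sources used here are their versions, the annotation release, the strand setting and how multiply matching reads were handled, so genes with near-identical copies are marked as uncertain.

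GENCODE M21 (GRCm38) gave symbols and exon lengths, and 55227 of 55487 identifiers matched. The 260 others held 313 counts. CPM used edgeR 4.0.16 trimmed-mean sizes (factors 0.992, 1.00 and 1.01, R 4.3.3), and TPM used the union of exons. Pair tests used log2 of TPM + 0.5. Python 3.11.15 with scipy 1.17.1 ran the tests. In simulated Poisson counts for 12473 genes, 200 genes were raised in replicate 1. The test found 26.0% of those set at 2-fold (3 false calls) and 72.0% of those set at 4-fold (4 false calls). Among genes at 20 CPM or more, where 6 of the 8 members lie, these shares were 42.6% and 99.2%. A lowered library and spread beyond counting error were not simulated. No library was a copy of another, since each pair differed beyond sampling noise (chi-square per gene 1.05 to 1.13). The gene that differed most was 1 of ribosomal RNA (7361, 5736 and 4625 counts in replicates 1, 2 and 3).

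The members and lists were chosen with earlier results of these data known. Named genes were the members, their families, the 4 highest by mean CPM and up to 4 without counts of each other list, and overlapping or adjacent genes. Gfra1, Lhx1os, Paxip1, the TLE genes and the markers beyond that rule were named after their values were seen. Some genes that the rule names are not reported here. No genes of similar pattern are named, since 3 libraries of 1 group hold none. Alternatives were DESeq2 1.42.0 size factors, library totals, other thresholds, longest-transcript lengths, a pseudocount of 1 and leaving out each replicate.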

Additional observations from a re-analysis of the deposited data

How the results depend on the processing

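The count of 7 detected factors and that of 6 factors at 10 CPM or more held under DESeq2 size factors, library totals and each left-out replicate, and the 7 also under a rule of at least 1 count in every library or 10 in all. All 40 alternative CPM values of single factors stayed within 1 SD. This was nearly certain beforehand, since leaving out 1 of 3 replicates cannot move a mean by 1 SD at fixed library sizes. The other alternatives changed library sizes only slightly, and Emx1 was 0 throughout, so this is no test of the levels. The log2 ratio of Pax2 to Pax8 TPM of -0.81 ranged from -0.86 to -0.77 with a replicate left out, and was -1.34, or 0.392 times per length, with the longest transcript in place of the union of exons. The log2 ratio of Pax8 to Sall1 (0.10) ran from -0.12 without replicate 3 to 0.28 without replicate 2, and that of Pax2 to Emx2 (0.36) from -0.044 without replicate 1 to 0.59 without replicate 3; the cause was not tested. With the longest transcript these were 0.93 and 0.63, and 9 of the 11 pairs in place of 7 had the same direction in every library, 3 of them against a gene without counts. The 5 genes that differed between libraries fell to between 1 and 3 with a replicate left out. Fewer counts are tested there, and the cause of the fall was not tested. The chi-square test for every gene called 5 genes and 0 factors, and no alternative called a factor after adjustment. The unadjusted p of Emx2 was 0.0492 with DESeq2 size factors and 0.0431 with library totals, so 1 factor lay under 0.05 there. No paired analysis was possible because the labels give 1 group. Depth limits the genes of few counts most: 0 counts in the 3 libraries leave up to 2.20 CPM, and Lhx1 rests on 11 counts.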
